A study of Mus musculus with 24 samples.

Results

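The genes described here mark the endothelium, the single layer of cells that lines blood vessels, in RNA-Seq libraries from the hippocampus (HIP) and entorhinal cortex (EC) of Ts65Dn and wt mice. They are Erg, Cldn5, Flt1, Pecam1, Kdr, Cdh5, Tie1, Esam, Slc2a1 and Itm2a, which were chosen by name and found by Ensembl identifier, and they make up 10 of the 55385 genes in the count table. All 10 had enough counts to enter each test. Erg lies in the segment of mouse chromosome 16 (Mmu16) that is triplicated in Ts65Dn, and the other 9 genes lie outside it.

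The study sequenced 1 HIP and 1 EC library from each of 6 Ts65Dn and 6 wt male mice, 24 libraries in all. The mice were 5 to 6 months old, and both genotypes were on an F1 B6C3B hybrid background. Ts65Dn mice carry a freely segregating extra chromosome that holds the Mmu16 segment from Mir155 to Zbtb21 together with a piece of Mmu17 from Pisd-ps2 to Pde10a, so that genes unrelated to human chromosome 21 are also in 3 copies. The wt mice carry neither, and the labels name no other allele or treatment. Total counts per library ranged from 23128589 to 40476492. Levels are given below as CPM (counts scaled by TMM to a common library size), or as FPKM, the same value per kilobase of exon where levels of different genes are set side by side. The RNA came from whole tissue, so fewer endothelial cells and less RNA per cell cannot be told apart.

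In the brain, endothelial cells form the blood-brain barrier, sealed by tight junctions and supplied with dedicated transporters. They respond to VEGF through the receptors Flt1 and Kdr, and to angiopoietins through Tek and its partner Tie1. ERG, an ETS transcription factor, is known to keep up the expression of junction genes such as Cdh5 and Cldn5 in endothelium and to restrain inflammatory genes. The human ERG gene lies on chromosome 21, which is why its dose is of interest in models of Down syndrome.

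One mouse went against its genotype label. Over 78 triplicated Mmu16 genes tested in the HIP, Erg left out, the median ratio to the average of the wt libraries was 1.02 in the library labelled Ts65Dn replicate 3. In the other 5 Ts65Dn HIP libraries it ranged from 1.45 to 1.54, and in the 6 wt libraries from 0.976 to 1.01. The EC gave the same split, with 0.998 in the library labelled Ts65Dn replicate 3, 1.47 to 1.51 in the other 5 Ts65Dn libraries and 0.985 to 1.01 in wt (76 genes). The label was kept, and values without that mouse are given beside part of the results. The hippocampal markers Prox1, C1ql2, Dsp and Zbtb20 summed to 621 ± 93.4 CPM in the wt HIP and 78.5 ± 5.97 CPM in the wt EC (SD, n = 6).

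The members were read at very different levels. In the wt HIP the order per length ran from Itm2a at 32.1 ± 3.11 FPKM through Cldn5 at 23.6 ± 2.59, Slc2a1 at 21.4 ± 1.52, Flt1 at 5.89 ± 0.279, Esam at 5.30 ± 0.454, Cdh5 at 3.80 ± 0.218, Pecam1 at 3.77 ± 0.276, Kdr at 2.42 ± 0.325 and Tie1 at 2.05 ± 0.286 to Erg at 1.51 ± 0.231 (SD, n = 6). Itm2a encodes a membrane protein enriched in brain endothelium, Cldn5 the main claudin of its tight junctions, and Slc2a1 the glucose transporter of the barrier. The libraries of neighbours in this order overlapped, except between Slc2a1 and Flt1, between Esam and Cdh5, between Pecam1 and Kdr, and between Tie1 and Erg. Erg was the lowest member in all 4 groups, reaching 1.85 ± 0.258 FPKM in the Ts65Dn HIP, 1.93 ± 0.262 in the wt EC and 2.04 ± 0.322 in the Ts65Dn EC, and in these 3 groups its libraries overlapped those of Tie1. Its low level meant 97 to 264 counts per HIP library and 151 to 317 per EC library, against 1522 to 3254 counts for Flt1 in the HIP, so that Erg had the fewest counts of the set.

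Erg occupies chr16:95359169-95586593 on the minus strand of GRCm38, and Cldn5, the other member on Mmu16, lies at chr16:18776847-18778262, far from the triplicated segment. ETS factors recognise DNA around a GGAA core, and the 250 bases before annotated start sites are shown for Erg and for its neighbours in function Cldn5, Flt1 and Kdr, to let the promoters of the triplicated gene and of the other members be compared. Sequences are from RefSeq (GRCm38.p6), 5′ to 3′ on the strand of the gene, and capitals mark GGAA on either strand (GGAA or TTCC as printed). The table held start sites for 7 of the 10 members, with 3 for Erg, of which the most downstream is shown, chosen after its matches were seen.
Erg, chr16:95459349-95459598, minus strand: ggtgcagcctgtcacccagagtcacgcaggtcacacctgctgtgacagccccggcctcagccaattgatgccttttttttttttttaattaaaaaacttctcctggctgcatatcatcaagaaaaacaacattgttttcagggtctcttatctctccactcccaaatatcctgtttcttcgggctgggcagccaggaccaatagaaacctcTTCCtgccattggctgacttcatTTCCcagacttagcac
Cldn5, chr16:18776597-18776846, plus strand: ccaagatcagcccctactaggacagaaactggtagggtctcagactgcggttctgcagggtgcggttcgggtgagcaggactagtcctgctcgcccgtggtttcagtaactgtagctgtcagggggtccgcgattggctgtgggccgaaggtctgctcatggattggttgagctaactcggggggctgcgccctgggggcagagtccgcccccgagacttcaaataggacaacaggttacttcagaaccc
Flt1, chr5:147726012-147726261, minus strand: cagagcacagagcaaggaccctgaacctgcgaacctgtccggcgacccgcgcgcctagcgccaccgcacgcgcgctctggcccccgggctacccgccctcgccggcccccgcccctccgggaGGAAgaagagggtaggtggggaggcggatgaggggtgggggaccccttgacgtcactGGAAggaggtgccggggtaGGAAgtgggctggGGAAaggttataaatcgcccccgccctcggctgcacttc
Kdr, chr5:75978456-75978705, minus strand: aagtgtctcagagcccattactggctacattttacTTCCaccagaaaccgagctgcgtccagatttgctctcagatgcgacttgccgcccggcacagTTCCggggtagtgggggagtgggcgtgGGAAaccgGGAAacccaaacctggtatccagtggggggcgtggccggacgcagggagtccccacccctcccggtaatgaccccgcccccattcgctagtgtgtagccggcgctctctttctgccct

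The printed window of Erg held 2 matches and the other 2 windows of Erg 4 and none, those of Flt1 and Kdr 4 each, and that of Cldn5 none. GGAA on either strand was found in 93.4% of 32851 windows of the same length, so its presence does not set these promoters apart. The longer AGGAAG, which contains GGAA, was found in 29.5% of all windows. It was found in 4 of the 9 windows of the 7 members, 1 window in each of 4 members. A match is a run of letters and not a measured binding site.

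Whether an extra copy of Erg raised its RNA was asked first. In the HIP, Erg was read at 3.62, 5.52, 5.79, 5.58, 5.33 and 5.53 CPM in wt replicates 1 to 6 and at 7.11, 7.78, 5.30, 5.88, 6.08 and 6.32 CPM in Ts65Dn replicates 1 to 6. In Ts65Dn, 5 libraries lay above all 6 wt libraries, and the one inside the wt range was that labelled replicate 3. The fitted fold change was 1.22 (95% interval 1.02 to 1.47), which edgeR's quasi-likelihood test did not call (adjusted p = 0.298, unadjusted p = 0.0356). Without the library labelled Ts65Dn replicate 3 it was 1.26 (1.05 to 1.53, adjusted p = 0.191), and the groups then did not overlap, as was true of 2.03% of the genes tested in that direction and 3.54% in either (1.67% with all libraries).

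In the EC the levels of Erg were mixed. The wt replicates 1 to 6 gave 5.74, 7.45, 6.15, 7.92, 5.83 and 7.02 CPM, and the Ts65Dn replicates 8.66, 7.05, 7.05, 6.64, 7.71 and 5.31 CPM. Only replicate 1 of Ts65Dn exceeded every wt library, and replicate 6 fell below them all. The fold change was 1.05 (0.880 to 1.26, adjusted p = 0.807) and 1.05 (0.868 to 1.28, adjusted p = 0.809) without the library labelled Ts65Dn replicate 3. The upper bound lay below the 1.5-fold that 1 extra copy would give, as it did in the HIP with all 6 Ts65Dn libraries, while the HIP interval without the library labelled replicate 3 included 1.5. With all libraries, 12 of 79 triplicated Mmu16 genes in HIP and 9 of 77 in EC had an upper bound under 1.5. Those groups include the library that read triplicated genes at the wt level, and the median fold change of these genes was 1.42 in each region. The 2 regions were not shown to differ, since the genotype by region interaction of Erg was 0.22 ± 0.14 on the log2 scale (SE, unadjusted p = 0.140), and 0.27 ± 0.14 without the mouse labelled Ts65Dn replicate 3 (unadjusted p = 0.0775).

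**Figure D1:**
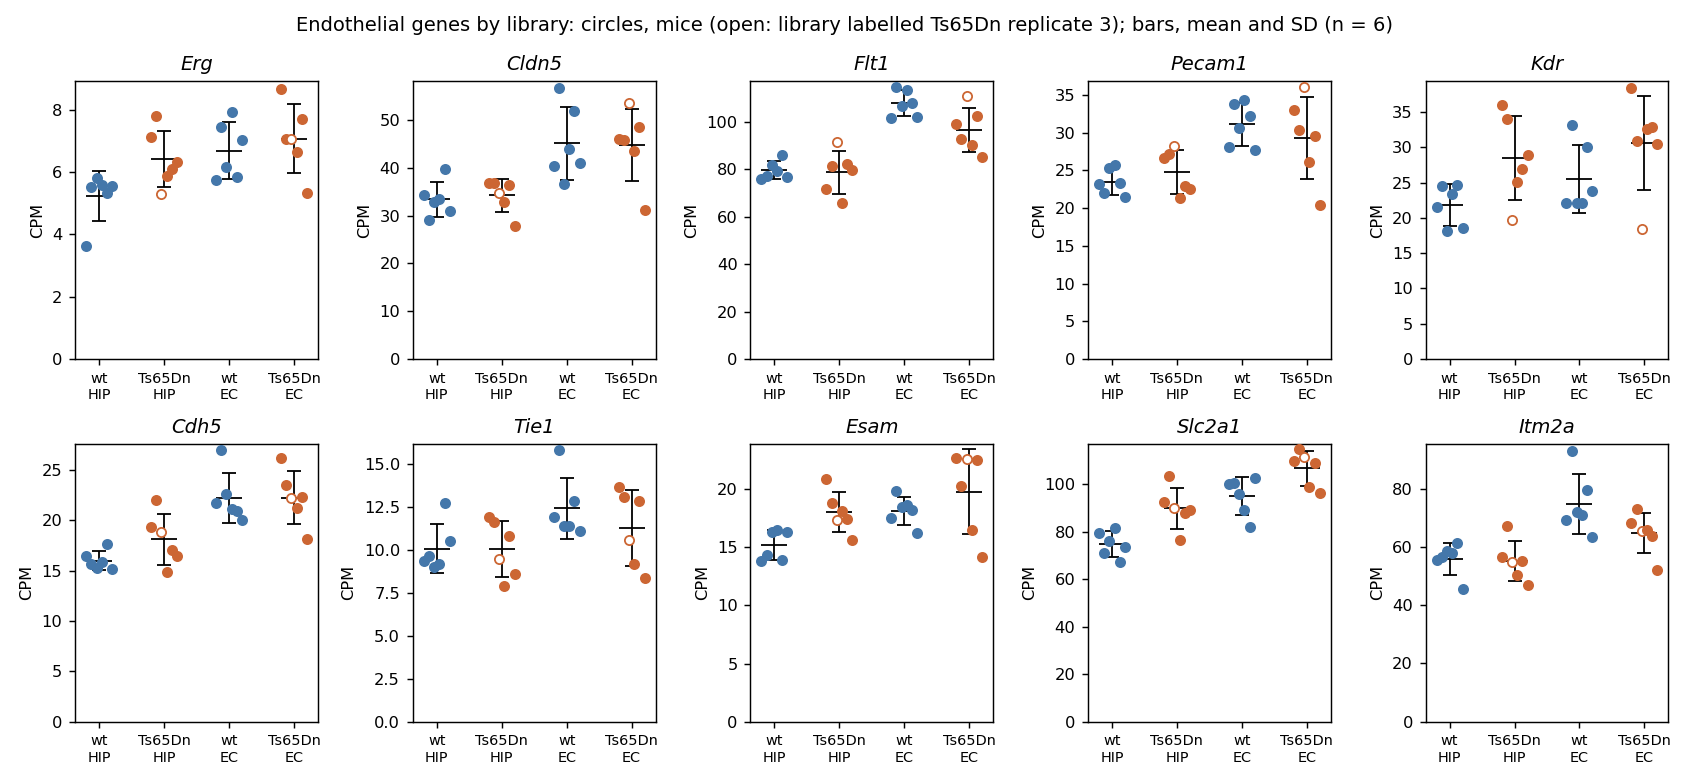
CPM (vertical axes, from 0) of the 10 endothelial genes in each of 24 libraries, by genotype and region, with the mean and SD of 6 libraries. The open circle of the library labelled Ts65Dn replicate 3 sits among the wt libraries for Erg and Kdr in the HIP, and most genes are higher in the EC than in the HIP.

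Of the other triplicated genes that endothelial cells express, 2 were called as higher in each region. Whether their change differed from that of Erg was not tested. Adamts1, a secreted metalloprotease with antiangiogenic activity, was read at 26.8, 31.0 and 33.2 CPM (lowest, median and highest) in the wt HIP. In the Ts65Dn HIP it was read at 35.5, 47.2 and 49.4 CPM. The groups did not overlap, as was true of 1.67% of all genes tested. The fold change of Adamts1 was 1.45 (1.26 to 1.66, adjusted p = 0.0191). Jam2, a junctional adhesion molecule, was read at 43.9, 46.9 and 52.2 CPM in the wt HIP and at 48.6, 70.8 and 77.1 CPM in the Ts65Dn HIP. Only the library labelled Ts65Dn replicate 3 lay within the wt range, and without it 3.54% of all genes did not overlap between genotypes. The fold change of Jam2 was 1.43 (1.25 to 1.63, adjusted p = 0.0191). In the EC, Jam2 rose by a fold change of 1.36 (1.17 to 1.59, adjusted p = 0.0412) and Ets2, an ETS factor expressed in many cell types that lies next to Erg, by 1.34 (1.17 to 1.53, adjusted p = 0.0285). Without the library labelled Ts65Dn replicate 3, the fold changes were 1.502 for Adamts1 and 1.509 for Jam2 in HIP and 1.45 for Jam2 and 1.41 for Ets2 in EC. When each of the 12 mice was left out in turn, Adamts1 in HIP was called in all 12 fits and Jam2 in HIP in 10, while in EC Jam2 was called in 3 (highest adjusted p = 0.102) and Ets2 in 6 (highest adjusted p = 0.0755).

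Of the 5 genes on the list of triplicated genes with endothelial expression (Erg, Jam2, Cyyr1, Adamts1 and Ets2), 2 were thus called in each region, where the test called 0.542% of all genes as higher in HIP and 1.15% in EC. The median log2 fold change over the list was 0.50 in HIP and 0.41 in EC, where the median over all genes tested was 0.0047 and 0.0046. Cyyr1, a membrane protein gene of unknown role, gave 1.42 (adjusted p = 0.0569) in HIP and 1.25 (adjusted p = 0.157) in EC, Ets2 gave 1.35 (adjusted p = 0.0684) in the HIP, and Adamts1 gave 1.33 (adjusted p = 0.0668) in the EC. These calls depended on the tool, since DESeq2 called Cyyr1 (adjusted p = 0.00267) and Ets2 (adjusted p = 0.00469) in HIP and Adamts1 (adjusted p = 0.0116) in EC. Without the library labelled Ts65Dn replicate 3, Ets2 in the HIP (1.43, adjusted p = 0.00276) and Adamts1 in the EC (1.39, adjusted p = 0.0299) were called too. In the EC, Jam2, Ets2 and Adamts1 then did not overlap between genotypes, as was true of 2.31% of all genes in that direction and 4.08% in either. Each of these genes is also expressed outside the endothelium, so the counts do not measure vessels alone.

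**Figure D2:**
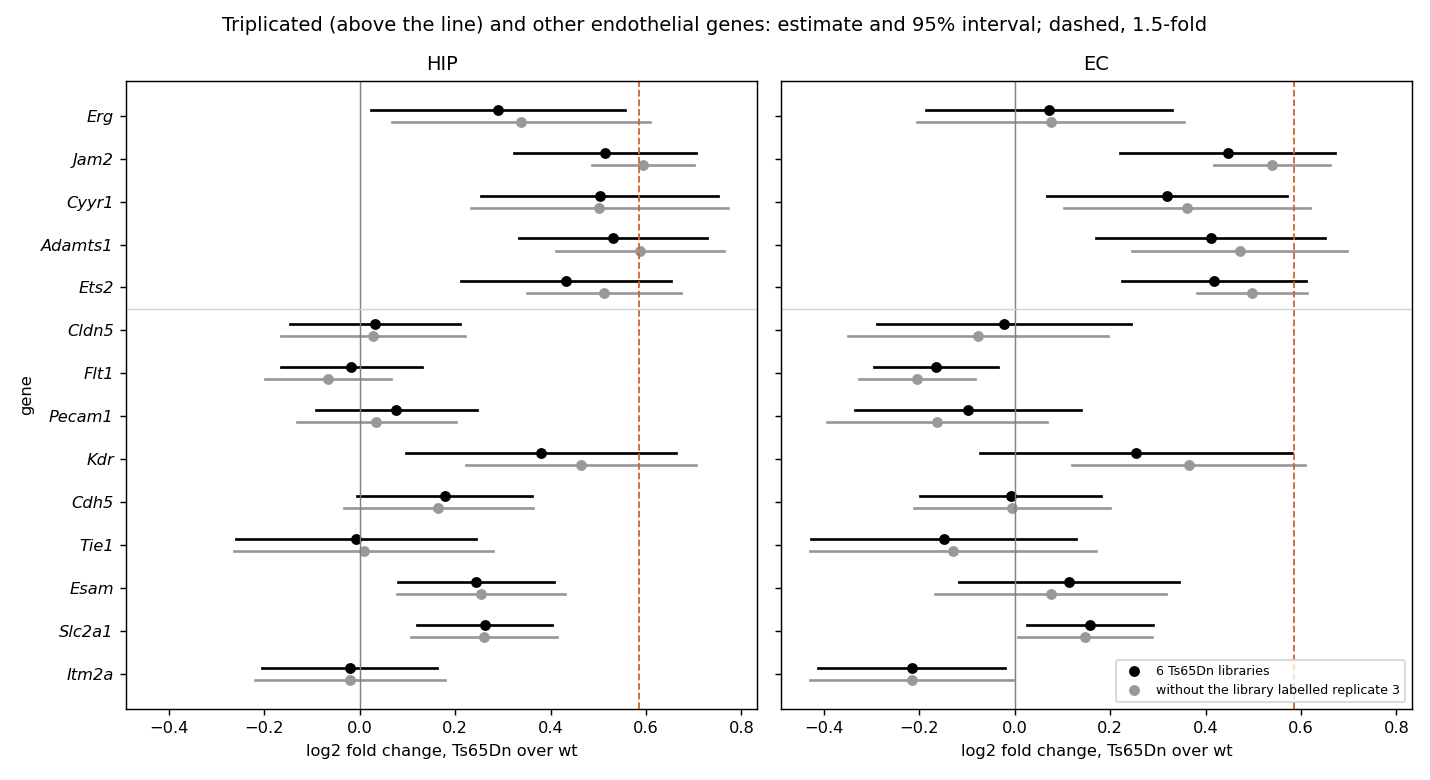
Log2 fold change of Ts65Dn over wt (horizontal axis) with its 95% interval, in the HIP and EC, for the triplicated endothelial genes above the line and the 9 other members below it, with 6 Ts65Dn libraries in black and without the library labelled replicate 3 in grey. Erg lies left of the other triplicated genes in both regions, at a fold change of 1.22 in HIP and 1.05 in EC, and Kdr is the highest of the 9 members.

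Most genes around Erg on Mmu16 rose. Of the 8 neighbours listed, 7 were tested. With all libraries, edgeR called 5 of them as higher in the HIP, where it called 0.542% of all genes as higher. They were Psmg1 (fold change 1.51), Ttc3 (1.43), Brwd1 (1.38), Dyrk1a (1.36) and Hmgn1 (1.36). With the same libraries, Kcnj6 (1.45, adjusted p = 0.0953) and Ets2 were called by DESeq2 (adjusted p = 0.0111 for Kcnj6) but not by edgeR. All 7 were called as higher in the EC, from Dyrk1a (1.30) to Kcnj6 (1.47), where 1.15% of all genes were. With each of the 12 mice left out in turn, Psmg1 was called in all 12 fits in both regions, but Dyrk1a in 2 in HIP and 1 in EC (highest adjusted p = 0.0971). Dyrk1a encodes a protein kinase studied for its dose in Down syndrome, and Kcnj6 a potassium channel of neurons. Without the library labelled Ts65Dn replicate 3, all 7 were called in both regions, where the test called 1.82% of all genes in HIP and 2.79% in EC tissue.

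Among the 79 triplicated Mmu16 genes tested in the HIP, the fold change of Erg was number 6 from the lowest, in a range from 1.05 (Pcp4) to 2.20 (Ripk4) with a median of 1.42. Among the 77 tested in the EC it was the lowest, where the highest was Ripk4 at 2.75 and the median was 1.42. Without the library labelled Ts65Dn replicate 3, Erg was number 5 from the lowest of 80 in HIP and the lowest of 78 in EC, and both medians were 1.48. The test called 39 of these genes in HIP and 40 in EC, where it called 1.04% and 2.50% of all genes. The ranks carry the counting error of low genes, Erg among them, and neighbouring ranks overlapped in their intervals.

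**Figure D3:**
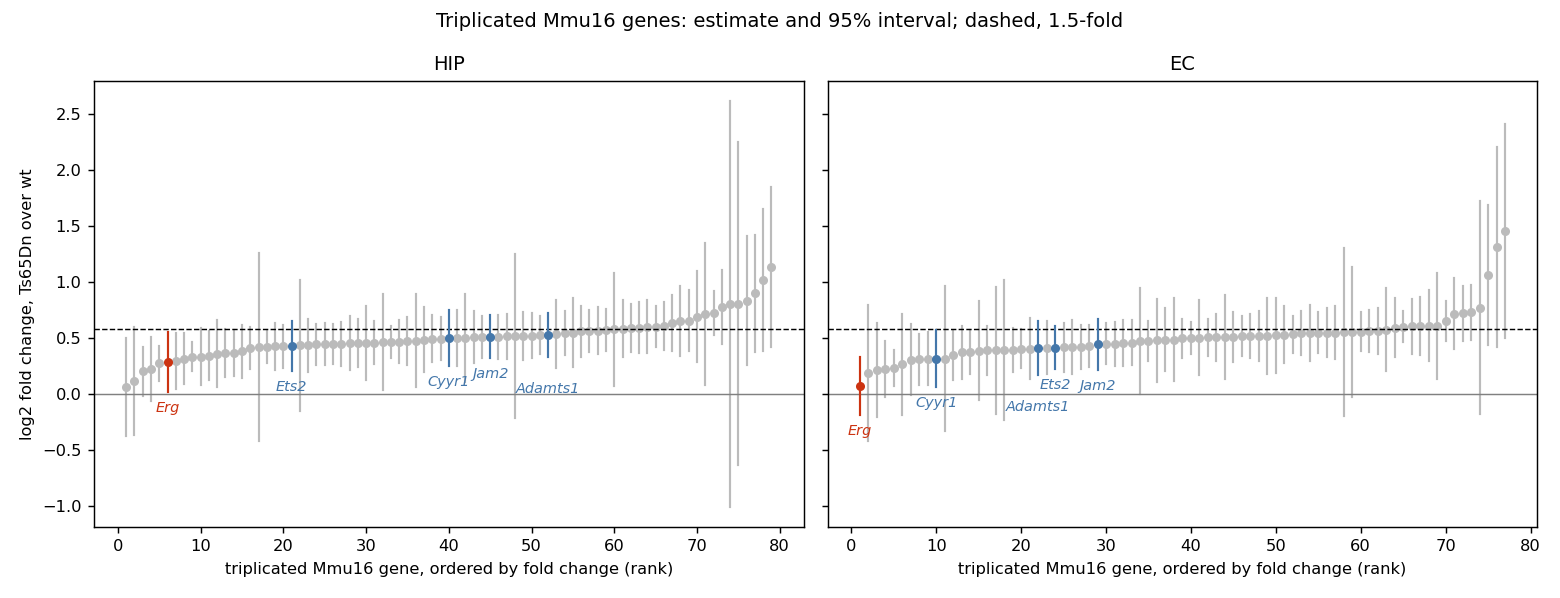
Log2 fold change of Ts65Dn over wt (vertical axis) with its 95% interval for each triplicated Mmu16 gene tested, ordered from lowest to highest (horizontal axis, rank), in the HIP and EC. Erg (red) is number 6 of 79 in HIP and the lowest of 77 in EC, while Jam2, Cyyr1, Adamts1 and Ets2 (blue) lie farther to the right.

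Erg was also set against the endothelium of its own library, as its log2 CPM minus the mean log2 CPM of the 9 other members. In the HIP this difference was -2.29 ± 0.14 in Ts65Dn and -2.46 ± 0.26 in wt (SD, n = 6), a shift of 0.17, or 1.13-fold. In 4 of the 6 Ts65Dn libraries it exceeded every wt library. In the EC it was -2.38 ± 0.08 in Ts65Dn and -2.47 ± 0.20 in wt, a shift of 0.09, or 1.06-fold, and no Ts65Dn library exceeded the highest wt library. Without the library labelled Ts65Dn replicate 3 the shifts were 0.22 and 0.09. Replicate 1 of the wt HIP, the lowest library at -2.95, carried much of the HIP shift, which was 0.08 without it. In the EC the shift was 0.04 without wt replicate 5 and 0.15 without wt replicate 4. With all libraries, in each region the shift was smaller than the SD among wt libraries.

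**Figure D4:**
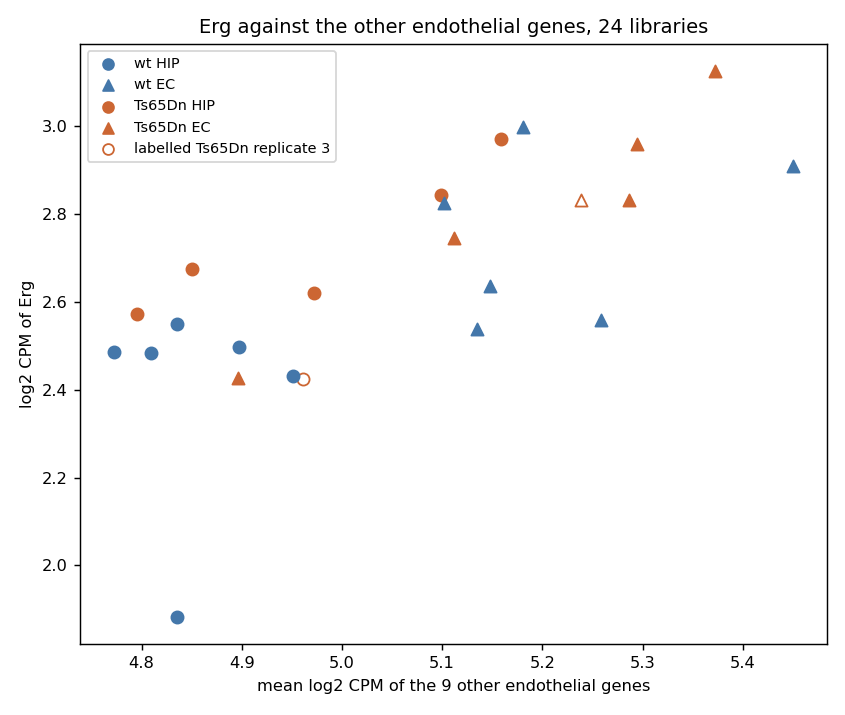
Log2 CPM of Erg (vertical axis) against the mean log2 CPM of the 9 other endothelial genes (horizontal axis) in 24 libraries, HIP as circles and EC as triangles. Replicate 1 of the wt HIP is lowest on the vertical axis, at 1.88, and the genotypes overlap.

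The 9 members outside the triplicated segment were then compared between genotypes. None of the 10 members was called by edgeR in the HIP, where the test called 1.04% of all genes, and none in the EC, where it called 2.50%. At an unadjusted p under 0.05, 4 members were higher in the Ts65Dn HIP (Slc2a1, Esam, Kdr and Erg) and none lower, with 14.8% of all genes past that threshold. In the EC 1 was higher (Slc2a1) and 2 were lower (Flt1 and Itm2a), with 19.0% of all genes past it. DESeq2 called 1 member in the HIP, Slc2a1, and none in the EC, against 3.81% and 6.69% of all genes. The median log2 fold change over the 9 members was 0.08 in HIP and -0.02 in EC, and 0.03 and -0.08 without the library labelled Ts65Dn replicate 3.

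The VEGF receptors gave different values. Kdr, the main signalling receptor for VEGF in endothelium, was read at 18.1, 22.5 and 24.7 CPM (lowest, median and highest) in the wt HIP and at 19.8, 27.9 and 36.0 CPM in the Ts65Dn HIP. The library labelled Ts65Dn replicate 3 was the lowest of its group, and the other 5 lay above all wt libraries, from 25.2 CPM. Without that library, 2.03% of all genes tested were higher without overlap, and 3.54% did not overlap in either direction. The fold change was 1.30 (1.07 to 1.58, adjusted p = 0.192), and without that library it was 1.38 (1.17 to 1.63, adjusted p = 0.0561). In the EC, Kdr spanned 22.0 to 33.2 CPM in wt (median 22.97) and 18.4 to 38.4 CPM in Ts65Dn (median 31.7), with the library labelled replicate 3 again lowest. The fold change was 1.19 (adjusted p = 0.398) with it and 1.29 (1.09 to 1.53, adjusted p = 0.0993) without it.

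Flt1, which binds VEGF and acts largely as a decoy, spanned 76.1 to 85.9 CPM in the wt HIP (median 78.1) and 65.8 to 91.5 CPM in the Ts65Dn HIP (median 80.4), with a fold change of 0.988 (0.892 to 1.10). In the EC it spanned 102 to 115 CPM in wt (median 107) and 85.2 to 111 CPM in Ts65Dn (median 95.9). There, 4 Ts65Dn libraries lay below all wt libraries, and the highest of its group was the library labelled replicate 3. The fold change was 0.892 (0.815 to 0.976, adjusted p = 0.155), and 0.868 (adjusted p = 0.0681) without that library. Tie1, the orphan receptor that modulates angiopoietin signalling through Tek, gave 0.995 (0.836 to 1.18) in HIP and 0.902 (0.744 to 1.09) in EC.

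The junction genes were not called in either region. Cldn5 was read at 29.1, 33.2 and 39.9 CPM in the wt HIP and at 27.9, 35.5 and 36.9 CPM in the Ts65Dn HIP, with a fold change of 1.02 (0.904 to 1.16). In the EC, Cldn5 spanned 36.5 to 56.7 CPM in wt and 31.2 to 53.6 CPM in Ts65Dn, with a fold change of 0.985 (0.819 to 1.18). Cdh5, the VE-cadherin of adherens junctions, gave 1.13 (0.995 to 1.29, adjusted p = 0.356) in HIP and 0.994 (0.872 to 1.13) in EC. Pecam1, an adhesion molecule of endothelial cell borders, gave 1.05 (0.938 to 1.19) in HIP and 0.934 (0.793 to 1.10) in EC. Esam, an immunoglobulin-like adhesion molecule of tight junctions, was read at 13.9, 15.3 and 16.5 CPM in the wt HIP and at 15.6, 17.8 and 20.9 CPM in the Ts65Dn HIP. In 5 of the 6 Ts65Dn libraries Esam exceeded all wt libraries, and its fold change was 1.18 (1.06 to 1.33, adjusted p = 0.151). In the EC its fold change was 1.08 (0.922 to 1.27, adjusted p = 0.621). Of these, Cdh5 overlaps antisense gene models, and so does Slc2a1. The strand setting of the counting is not given in the sources used here, so reads of these partners may be included.

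Slc2a1 carries glucose across the barrier and is also made by astrocytes. With all libraries it came closest of the members to the threshold in HIP, while Flt1 came closest in EC. Without the library labelled Ts65Dn replicate 3, Kdr came closest in HIP and Flt1 in EC. Slc2a1 was read at 67.5, 74.8 and 81.8 CPM in the wt HIP and at 76.8, 89.6 and 104 CPM in the Ts65Dn HIP, where 5 of 6 libraries lay above all wt libraries. The fold change was 1.199 (1.09 to 1.32, adjusted p = 0.0815), and 1.198 (adjusted p = 0.0875) without the library labelled Ts65Dn replicate 3, which stood at 89.9 CPM among the other Ts65Dn libraries. It was called by DESeq2 (adjusted p = 0.0117) and by edgeR without Ts65Dn replicate 4 (adjusted p = 0.0419, with 0.457% of all genes called). In the EC, Slc2a1 spanned 82.2 to 102 CPM in wt (median 98.0) and 96.3 to 115 CPM in Ts65Dn (median 109), with a fold change of 1.12 (1.02 to 1.22, adjusted p = 0.181). Itm2a spanned 45.6 to 61.4 CPM in the wt HIP and 47.1 to 67.3 CPM in the Ts65Dn HIP, with a fold change of 0.985 (0.868 to 1.12). In the EC it spanned 63.4 to 93.1 CPM in wt and 52.2 to 73.0 CPM in Ts65Dn, with a fold change of 0.861 (0.752 to 0.986, adjusted p = 0.216).

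Wider lists of vascular genes gave few calls by genotype. Of 24 other pan-endothelial genes, 1 rose in the HIP, where 0.542% of all genes did. It was Eng, a co-receptor of the TGF-β family on endothelial cells that is not triplicated. Eng was read at 19.8, 20.9 and 24.2 CPM in the wt HIP and at 22.99, 31.1 and 33.6 CPM in the Ts65Dn HIP. The library labelled Ts65Dn replicate 3 was the lowest of its group, and the other 5 lay above all wt libraries. Without that library, 2.03% of all genes tested were higher without overlap. The fold change of Eng was 1.41 (1.24 to 1.59, adjusted p = 0.0167), and Eng was called in all 12 fits that left out 1 mouse, with 1.47 without the library labelled Ts65Dn replicate 3. In the EC it was 1.31 (1.12 to 1.53, adjusted p = 0.0608), and 1.35 (adjusted p = 0.0476) without that library. DESeq2 called Eng in the EC with all libraries (adjusted p = 0.00921). Past an unadjusted p of 0.05, 4 of the 24 genes were higher and none lower in HIP, where 14.8% of all genes were past it. In EC 3 were higher and 1 lower, where 19.0% of all genes were past it. Without the library labelled Ts65Dn replicate 3, 3 were higher and 2 lower in HIP, and 3 were higher and 3 lower in EC. Of all genes, 2966 of 17452 in HIP and 3282 of 17229 in EC were then past it. The median log2 fold change of the 24 genes was 0.12 in HIP and -0.06 in EC. Cd34, a sialomucin and the most abundant of them, had 55.2 CPM in the Ts65Dn HIP and 54.7 CPM in the wt HIP on average, and 84.3 and 100.5 CPM in the EC. Its EC fold change was 0.832 (adjusted p = 0.349), and 0.765 without the library labelled Ts65Dn replicate 3 (adjusted p = 0.114), which was the highest of its group.

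Of 28 blood-brain barrier genes, none was called in the HIP, and 1 fell in the EC, where 1.35% of all genes did. Past an unadjusted p of 0.05, 5 were higher and 2 lower in HIP, and 1 was higher and 3 lower in EC, against 14.8% and 19.0% of all genes. The gene called in the EC was Slc16a1, a transporter of lactate and other monocarboxylates. Slc16a1 was read at 53.5 to 67.9 CPM in the wt EC and at 40.6 to 53.2 CPM in the Ts65Dn EC, without overlap, where 2.46% of all genes tested did not overlap. Its fold change was 0.797 (0.709 to 0.896, adjusted p = 0.0448), and with each mouse omitted in turn it passed in 2 of 12 fits (highest adjusted p = 0.102). Bsg, the most abundant gene of that list and a partner of monocarboxylate transporters, had 407 CPM in the Ts65Dn HIP and 357 CPM in the wt HIP and was not called. On the list of VEGF, angiopoietin and Notch signalling, 1 of 21 genes was called in the HIP, again Eng, and none in the EC. Past an unadjusted p of 0.05, 5 were higher and none lower in HIP, a share above that of all genes, and 2 were higher and 1 lower in EC, a share below it. S1pr1, a sphingosine receptor and the most abundant gene there, had 161 CPM in the Ts65Dn HIP and 170 CPM in the wt HIP, and in the EC was called as lower without the library labelled Ts65Dn replicate 3 (fold change 0.842, adjusted p = 0.0266) but not with all libraries. Among 10 genes known as targets of ERG, which share Cdh5 and Cldn5 with the members, Eng was the 1 called in HIP and none was called in EC, where 2 passed an unadjusted p of 0.05, as 2 did in HIP, shares near the 19.0% and 14.8% of all genes.

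None of 13 other ETS factors and partner transcription factors of endothelium was called in either region, and with all libraries none passed an unadjusted p of 0.05. Without the library labelled Ts65Dn replicate 3, 1 was higher past it in HIP, as 2966 of 17452 genes were past it, and none in EC. Fli1, the ETS factor closest to ERG, was read at 2.47 to 4.32 CPM in the wt HIP and at 2.33 to 3.92 CPM in the Ts65Dn HIP. Its fold change was 0.915 in the HIP (adjusted p = 0.731) and 0.840 in the EC (0.684 to 1.03, adjusted p = 0.345). Ets1 gave 0.994 and 0.915, Elk3 1.11 and 1.01, and Etv6, the most abundant of the list, 1.02 and 1.01 in the HIP and EC. The haematopoietic and endothelial factors Tal1 (0.845 and 0.782), Lyl1 (1.22 and 1.25), Lmo2 (0.984 and 0.972) and Gata2 (1.11 and 1.06) lay on both sides of 1. So did the flow-responsive Klf2 (1.23 and 1.09) and Klf4 (1.01 and 0.952), and Sox7 (1.11 and 1.10), Sox17 (0.923 and 0.964) and Sox18 (1.197 and 1.13).

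Markers of the cells that surround or fill vessels showed no calls by genotype. None of 10 pericyte, 5 vascular smooth muscle, 7 fibroblast, 5 erythroid and 6 choroid plexus genes was called by edgeR in the HIP, and none in the EC, where 4 of the smooth muscle and 4 of the choroid plexus genes were tested. At an unadjusted p under 0.05 the HIP had 1 pericyte and 1 fibroblast gene, both higher, and the EC had 3 erythroid genes and 1 each of the pericyte, fibroblast and choroid plexus genes, all lower. Summed fibroblast markers, led by Dcn, came to 105 ± 54.9 CPM in the Ts65Dn HIP and 71.7 ± 18.4 CPM in the wt HIP, and all 7 had a positive log2 fold change (median 0.51). Summed erythroid markers, led by Hbb-bs, came to 167 ± 70.0 CPM in the Ts65Dn EC and 273 ± 155 CPM in the wt EC, with a median log2 fold change of -0.73 and no positive one. Pericyte markers, led by Rgs5, came to 279 ± 34.1 and 257 ± 16.96 CPM in the Ts65Dn and wt HIP. The part of these cells in the values of the members was not tested. P2ry12, a purinergic receptor of microglia, was the 1 of 8 microglial genes called, and it fell in both regions (0.831, adjusted p = 0.0422 in HIP and 0.732, adjusted p = 0.0226 in EC), and with each mouse omitted in turn passed in 4 and 9 of 12 fits. No astrocyte, oligodendrocyte, neuronal, platelet or leukocyte, hippocampal or cortical marker was called, except Rorb, lower in the EC without the library labelled Ts65Dn replicate 3 (fold change 0.726, adjusted p = 0.0422). Past an unadjusted p of 0.05, 2 of 6 astrocyte markers in HIP and 3 in EC were lower and none higher, with median log2 fold changes of -0.10 and -0.17. Of all genes, 14.8% were past that p in HIP and 19.0% in EC, and 1.04% and 2.50% were called.

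The members differed between the regions. In wt mice all 10 members were lower in the HIP than in the EC of the same mouse, by edgeR with a term for each mouse, where the test called 61.3% of all genes, 30.3% as lower, and 65.2% passed an unadjusted p of 0.05. The log2 fold changes ranged from -0.23 for Kdr to -0.48 for Cdh5, with a median of -0.38, while the median over all genes tested was 0.0016. Flt1 averaged 79.5 ± 3.76 CPM in HIP and 108 ± 5.5 CPM in EC (SD, n = 6), and the regions did not overlap (log2 fold change -0.44, adjusted p = 4.9e-06). Cdh5 averaged 15.98 ± 0.915 and 22.2 ± 2.48 CPM (-0.48, adjusted p = 0.00015), again without overlap. Pecam1, Slc2a1 and Itm2a did not overlap either, where 16.4% of all genes were lower without overlap. Erg averaged 5.23 ± 0.802 and 6.68 ± 0.909 CPM (-0.36, adjusted p = 0.0062), lower in the HIP of 6 of 6 mice. Kdr and Esam were lower in 5 of 6 mice and the other members in 6 of 6, as was true of 27.1% of all genes.

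In Ts65Dn mice 6 of the 10 members were lower in the HIP, namely Cldn5 (log2 fold change -0.38, adjusted p = 0.00052), Flt1 (-0.30), Cdh5 (-0.30), Slc2a1 (-0.25), Itm2a (-0.24) and Pecam1 (-0.23, adjusted p = 0.021), where 52.3% of all genes were called, 25.7% as lower and 26.6% as higher. Erg (-0.14, adjusted p = 0.293), Kdr (-0.10, adjusted p = 0.274), Esam (-0.12, adjusted p = 0.239) and Tie1 (-0.16, adjusted p = 0.069) were not called. In all 6 mice 5 members were lower in the HIP (Cldn5, Flt1, Cdh5, Slc2a1 and Itm2a), as were 23.1% of all genes. At an unadjusted p under 0.05 there were 7 members and 57.8% of all genes. Without the mouse labelled Ts65Dn replicate 3, 5 members were called, where 47.9% of all genes were, and Pecam1 was not (adjusted p = 0.0598). Then 6 members and 54.4% of all genes passed an unadjusted p of 0.05. The difference of the genotype effect between the regions was positive for all 10 members, from 0.05 for Cldn5 to 0.22 for Erg on the log2 scale. No member and no gene was called in that interaction by edgeR (0.00% of 18109 genes). By edgeR, 1 member, Itm2a, was past an unadjusted p of 0.05, as were 4.10% of all genes, and without the mouse labelled Ts65Dn replicate 3 there were 2 members and 6.45% of all genes, so a difference between genotypes in the regional step was not shown.

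**Figure D5:**
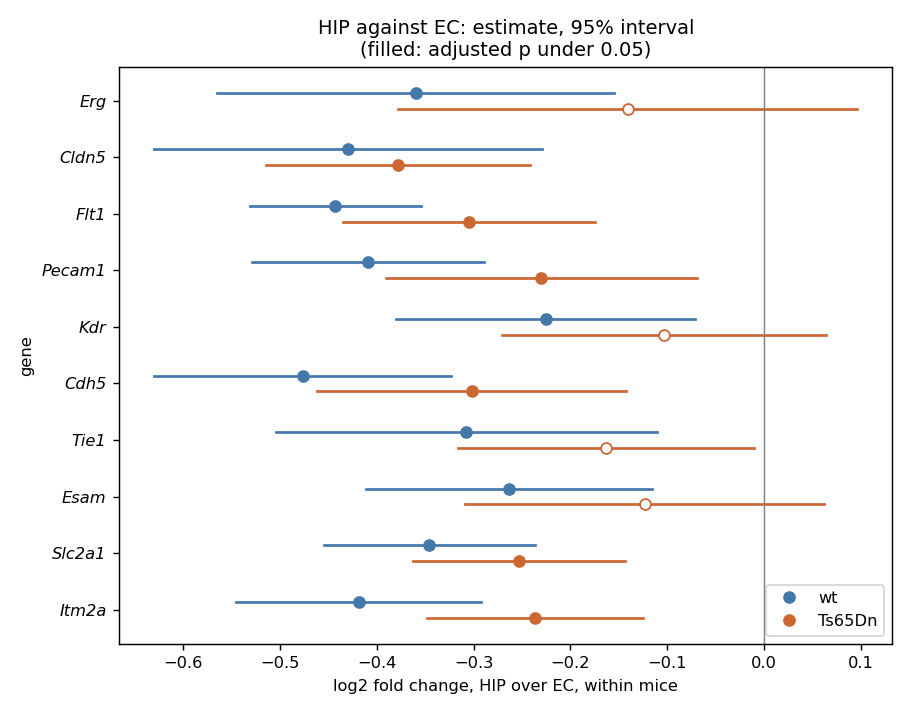
Log2 fold change of HIP over EC within mice (horizontal axis) with its 95% interval for the 10 endothelial genes in wt and Ts65Dn, filled where the adjusted p was under 0.05. In wt all 10 genes lie below 0, from -0.48 to -0.23, and in Ts65Dn all 10 estimates lie below 0 and 6 are filled.

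Pan-endothelial genes were mostly lower in the wt HIP, while the barrier and signalling lists were split. Of 24 pan-endothelial genes, 18 were lower in the HIP and 1 was higher, Ushbp1 (log2 fold change 0.36), with the largest falls in Cd34 (-0.87), Vwf (-0.83), Podxl (-0.54) and the angiopoietin receptor Tek (-0.50). In Ts65Dn 9 were lower and none was higher. Among 13 ETS factors and partners, 5 were lower in wt and 4 in Ts65Dn, near the 30.3% and 25.7% of all genes called as lower, led by Tal1 (-1.27 and -1.11) and Etv6 (-1.10 and -1.11). Blood-brain barrier genes were split in wt, with 12 lower, among them the exporter Abcg2 (-0.49) and the amino acid transporter Slc7a5 (-0.44), and 5 higher, among them the junction gene Ocln (0.59), which other cells express too. In Ts65Dn 8 were lower and 6 higher, where 25.7% and 26.6% of all genes were. The signalling list was also split, with 7 of 21 lower in wt and 4 higher (median log2 fold change -0.07). Its share of lower genes was near the 30.3% of all genes, and its share of higher genes was below the 31.0% of all genes. The higher genes were led by Nrp1 (1.97) and Nrp2 (1.55), which neurons express as semaphorin receptors. Of the 10 target genes of ERG, which include Cdh5, Cldn5 and Eng counted above, 6 were lower and Fzd4 (0.34) was higher in wt. In Ts65Dn 4 were lower and Fzd4 (0.38) was higher, and 3 were lower without the mouse labelled replicate 3. The test called 30.3% of all genes as lower in wt and 25.7% in Ts65Dn.

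Triplicated endothelial genes differed in where they were high. Adamts1 was higher in the HIP (fold change 2.29 in wt and 2.49 in Ts65Dn). Ets2 was lower there in both genotypes (log2 fold change -0.39 and -0.38). Erg, Cyyr1 (log2 fold change -0.24) and Jam2 (-0.21) were lower in wt. Among the 7 neighbours of Erg tested, Kcnj6 (log2 fold change 0.70) and Hmgn1 (0.39) were higher in the wt HIP. Ets2, Ttc3 (-0.34), Psmg1 (-0.25) and Dyrk1a (-0.14) were lower there. The test called 31.0% of all genes as higher and 30.3% as lower in wt, and 26.6% and 25.7% in Ts65Dn. The share of neighbours that were higher in wt lay near that of all genes.

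Other cell types moved with the regions as well. In wt all 10 pericyte genes were lower in the HIP, led by Anpep (log2 fold change -0.62) and Vtn (-0.53). So were all 8 microglial genes, led by Csf1r (-0.38), and 4 of 5 erythroid genes. In Ts65Dn 3 pericyte genes, 6 microglial genes and 4 erythroid genes were lower, and 1, 4 and 3 without the mouse labelled replicate 3. Of all genes, the test called 30.3% as lower and 31.0% as higher in wt, and 25.7% and 26.6% in Ts65Dn. The 3 of 10 pericyte genes in Ts65Dn lay near that share. All 5 oligodendrocyte genes were higher in the HIP of both genotypes, where they summed to 7076 ± 761 CPM in wt against 1838 ± 477 CPM in the EC, and all 6 choroid plexus genes, led by Ttr, summed to 1776 ± 1660 CPM in the wt HIP and 20.7 ± 14.5 CPM in the EC. Of 6 neuronal markers 3 were lower in the wt HIP, and astrocyte markers were split, 3 higher and 3 lower. No smooth muscle marker was called by edgeR in wt, and none of its 4 genes tested passed an unadjusted p of 0.05. Of the fibroblast markers Lum (1.28) was higher and Mgp (-0.49) lower in wt, and Pf4 (-1.87) and Itga2b (-0.49) of platelets were lower. CPM scaled by TMM are relative levels and not amounts per cell, so a different mix of cell types can change them. The part of these cell types in the regional step of the members was not tested.

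Within groups the members varied together to different degrees. Over 24 libraries, after each group mean was subtracted, the Pearson correlation between 2 members ranged from -0.26 (Flt1 and Kdr) to 0.82 (Cdh5 and Tie1). The negative values, of Kdr with Flt1 and Pecam1, rested on the mouse labelled Ts65Dn replicate 3, which had the lowest Kdr and the highest Flt1 of its group in both regions. Without it (22 libraries, group means taken again) Flt1 and Kdr correlated at 0.33, and the range ran from 0.13 (Cldn5 and Slc2a1) to 0.84 (Cdh5 and Tie1). With all libraries, the median correlation of a member with the 9 others was highest for Pecam1 (0.65), Cldn5 (0.61) and Cdh5 (0.57) and lowest for Kdr (0.17), Slc2a1 (0.32) and Erg (0.37). Without that mouse, the median was 0.47 for Kdr, 0.32 for Slc2a1 and 0.51 for Erg. Erg correlated most with Esam (0.62) and least with Flt1 (0.27) in all libraries, and most with Pecam1 (0.67) and least with Kdr (0.29) without that mouse. The HIP and EC libraries of a mouse share its tissue donor and are not independent, so these values are descriptions. Summed over the members, replicate 6 of the Ts65Dn EC was the lowest EC library at 362 CPM and replicate 2 of the wt EC the highest at 502 CPM.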

How the data were processed

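Gene counts from 24 RNA-Seq libraries were analysed, 1 from each of 2 regions in 6 Ts65Dn and 6 wt mice, with totals of 23128589 to 40476492 counts. The authors aligned single-end reads to GRCm38 (Ensembl 99) with Hisat2 and deposited raw counts per gene from HTSeq-count, without normalization. The submitters' processing notes name bcl2fastq 2.17.1.14, DESeq2 and mm10. The kit is a stranded mRNA kit in the labels and a stranded total RNA kit in the methods. The deposited tables of the authors' own DESeq2 and FCROS comparisons, which hold log2 fold changes, ratios, scores and p-values, were not used. Of 55385 genes, 36766 had counts. Groups came from the sample labels. Nothing in them says that libraries are technical repeats, and no 2 libraries of a group agreed within sampling noise.

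Tests were edgeR 4.0.16 quasi-likelihood fits (R 4.3.3, filterByExpr, TMM, Benjamini-Hochberg over all genes tested, threshold 0.05), within each region for genotype, and with a term for each mouse for region and interaction. HIP and EC libraries that share a mouse number deviated together (r from 0.39 to 0.74, 6 of 6 best matched in each genotype). Log2 CPM used a prior count of 2, and FPKM the union of GENCODE vM21 exons, in which 99.6% of identifiers matched. Alternatives were DESeq2 1.42.0, its size factors, no filter, other mouse or replicate terms and leaving out each mouse. Named genes were the members, every tested gene of the triplicated and ETS lists, from other lists those called (at most 4 per direction) and the most abundant, and the 5 most correlated genes, with some genes that these rules name not reported here. The members and lists were chosen with earlier results of these data known. Fold changes given without a p in the lists of transcription factors were not called. The test was checked on simulated data, and a gene not called can have changed. Figures were drawn with matplotlib 3.10.9 in Python 3.11.15.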

Additional observations from a re-analysis of the deposited data

Results flagged for a closer look

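Among 44 groups of 6 values tested, 5 held a library that stood apart from the 5 others by Dixon's 95% criterion. For independent groups chance gives about 1 in 20. These groups were not independent, since both values of Erg came from 1 library and those of Cdh5 and Tie1 from another. No excess over chance can therefore be read from the count. Erg was 3.62 CPM in replicate 1 of the wt HIP, where the other 5 ranged from 5.33 to 5.79, and the log2 level of Erg against the 9 other members was -2.95 there, where the others ranged from -2.52 to -2.28. Without wt replicate 1 the HIP fold change of Erg was 0.21 on the log2 scale in place of 0.29. In the wt EC, replicate 2 was high for both Cdh5 (27.0 CPM, others 20.05 to 22.6) and Tie1 (15.8 CPM, others 11.1 to 12.8). In the wt HIP, Itm2a was 45.6 CPM in replicate 6, where the others ranged from 55.6 to 61.4.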

How the results depend on the processing

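The counts of calls depended on the tool. DESeq2 called 662 genes in HIP and 1141 in EC between genotypes, against 181 and 426 by edgeR, and 1 member in the HIP (Slc2a1) against 0. Besides Slc2a1 it added Cyyr1, Ets2 and Kcnj6 in HIP and Eng and Adamts1 in EC to the calls, and lost none of those checked. Without the filter on low counts, 275 genes were called in the EC and 37 in the interaction. The wt and Ts65Dn libraries that share a number did not deviate together (r from -0.18 to 0.21 in HIP and from -0.23 to 0.30 in EC, own number best in 0 and 1 of 6), and with the replicate block 29 genes were called in HIP and 36 in EC, with no member in either. All 19 genotype calls checked outside the members, those of Eng, of the triplicated genes named above, of Slc16a1 and of P2ry12, then missed the threshold in the same direction (Eng in HIP at an adjusted p of 0.0505, Jam2 in EC at 0.101). P2ry12 in the HIP was also not called without the filter on low counts (adjusted p = 0.0627). Without the mouse term, Kdr in wt and Pecam1 in Ts65Dn were not called between regions. DESeq2 size factors in edgeR left all 74 results refitted that way on their side of the threshold and in their direction.

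Leaving out each mouse in turn, genes called ranged from 54 to 318 in HIP, at the omission of Ts65Dn mice 6 and 3, and from 90 to 685 in EC, at the omission of Ts65Dn mice 1 and 6, and members called in the HIP from 0 to 1. Over the 12 omissions, Ttc3 was called in 8 fits in HIP and 10 in EC, Brwd1 in 3 and 5, Hmgn1 in 5 and 2, and Kcnj6 in EC in 10, each with the same direction throughout. The log2 fold change of Erg ranged from 0.21 to 0.34 in HIP and from 0.01 to 0.14 in EC. Relative to the 9 other members, the Erg shift ranged from 0.08 to 0.22 in HIP and from 0.04 to 0.15 in EC, where the omissions other than Ts65Dn replicate 3 were chosen after seeing the data, as was the repeat of the correlations. Small differences changed sign, none of them called. Cldn5 ranged from -0.0045 to 0.092 in HIP and from -0.077 to 0.063 in EC. Flt1 ranged from -0.067 to 0.031, Tie1 from -0.057 to 0.073 and Itm2a from -0.084 to 0.022 in HIP, and Cdh5 from -0.060 to 0.055 in EC. The cause of these changes was not tested. Erg had the fewest counts of the members, 97 to 317 per library.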

Other observations

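The genes whose log2 CPM was most correlated with the mean of the 9 members outside the triplicated segment, over 24 libraries after subtraction of group means and among 14872 genes with a mean of at least 1 CPM, were Srgn (Pearson r = 0.889), Notch3 (0.824), Rida (0.814) and Ephb4 (0.813). Srgn encodes a secretory granule proteoglycan, Notch3 a receptor of mural cells and Ephb4 a receptor of venous endothelium. For Erg the nearest genes were Fam213a (0.730), P2ry14 (0.707), Eif3e (0.702), Olfml2a (0.697) and Pik3ap1 (0.692). Without the mouse labelled Ts65Dn replicate 3, the correlations of these genes ranged from 0.823 to 0.916 for the 9 members and from 0.670 to 0.802 for Erg. The libraries share mice and depth, so these values carry no p.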
